A study of Homo sapiens with 3 samples.

Results

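The 2 stretches of chromosome 7 that border its active centromeric array carried 1565 of the 181157 H3K27me3 peaks called in control cells and 771 of the 105729 peaks called after siORCA. They were taken by position on T2T-CHM13, from 55 Mb to base 60400000 on the short arm side and from base 63750001 to 67 Mb on the long arm side, 8.65 Mb in all. A peak with at least 1 bp in either stretch was a member, and covered lengths were clipped to the stretches. The study profiled H3K27me3 by ChIP-seq in U2OS, an established human osteosarcoma cell line. One library came from cells transfected with a control (Gl3) and the other from cells transfected with siORCA, directed at ORCA, a partner of the origin recognition complex that licenses DNA replication. Whether both libraries were made in the same batch was not established. The labels give no time after transfection, and an input library was not analysed here. With 1 library per condition no difference was tested, and no value between conditions has an error from replicates. Read depth was not given for either library, and its part in the differences was not tested. In bulk chromatin, fewer cells with the mark and less of the mark per cell cannot be told apart.

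H3K27me3 is placed by Polycomb repressive complex PRC2 and spreads over broad domains of silent chromatin, where peaks join into long runs. Pericentromeric chromatin lies beside the alpha satellite on which the kinetochore forms, and is better known for H3K9me3. Clusters of Krüppel-type zinc finger genes, many of whose products bind and silence transposable elements, lie in such chromatin on several chromosomes and are also known for H3K9me3. In RefSeq's GRCh38 table, 12 protein-coding zinc finger genes follow one another on chromosome 7 once uncharacterized LOC entries are left out: ZNF479, ZNF716, ZNF722, ZNF727, ZNF735, ZNF679, ZNF736, ZNF680, ZNF107, ZNF138, ZNF273 and ZNF117. That table is on another build than the peaks. Whether a given zinc finger gene lies under a given peak was therefore not determined, the description of the stretches as zinc finger regions was not checked, and the results are given by position.

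Both flanks were densely marked in the control and far less covered after siORCA. In the control, peaks took up 4.54 Mb of the flanks (52.5%), and in siORCA 0.964 Mb (11.1%). The ratio of siORCA to control was 0.212. On the short arm side the lengths were 2712 kb (50.2%) in control and 814.7 kb (15.1%) in siORCA cells, a ratio of 0.300. The long arm flank was covered over 1829 kb (56.3%) and 149.03 kb (4.59%), a ratio of 0.0815. The long arm flank was thus the more densely covered side in the control and the less covered side in siORCA. In peak number the fall was smaller: 921 control and 505 siORCA peaks on the short arm side, and 644 and 266 on the long arm side. Over both flanks the ratio of peak numbers was 0.493, and this measure depended on the limit set on peaks. It was 0.249 with peaks of a −log10 q of at least 2 and 0.763 with equal numbers of peaks from the 2 lists. With peaks of a fold of at least 3 it turned to 1.42, fold being the deposited enrichment of a peak over background. That fold limit kept 412 of the 1565 control peaks and 587 of the 771 siORCA peaks of the flanks.

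With all listed peaks, the array between the flanks showed almost no fall in the same 2 libraries. Its control peaks numbered 1769 and spanned 2.03 Mb (60.7%), and its siORCA peaks numbered 1720 and spanned 1.97 Mb (58.8%), which gives a ratio of 0.969. The rest of chromosome 7 was thinly covered, with 3.31% of its length under control peaks and 0.630% under siORCA peaks and a ratio of 0.191 that was close to that of the flanks. Over all 23 chromosomes the ratio was 0.447, and on chromosome 19, which is known for its many zinc finger genes, it was 0.254. The same limit on fold was set for both lists, although their median folds were 2.73 in the control and 3.29 in siORCA. The covered length ratios moved with the limit on peaks. With a fold of at least 3, which left 0.170 Mb of control length in the array, they were 11.2 in the array, 0.911 over all chromosomes and 0.386 on chromosome 19, against 0.434 and 0.0977 in the short and long arm flanks. With a −log10 q of at least 2, they were 1.03, 0.398 and 0.158, against 0.303 and 0.0323. The flanks held 39.5% of the control peak length of chromosome 7 and 24.9% of its siORCA peak length, while the array held 17.7% and 50.9%.

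The siORCA peaks of the flanks lay mostly within control peaks. Of the siORCA length in the flanks, 91.3% was also covered in the control, against 69.9% in the array and 71.2% over all chromosomes. Of the control length in the flanks, 19.4% was also covered in siORCA, against 67.8% in the array and 31.9% over all chromosomes. By flank, 27.4% of the control length was shared on the short arm side and 7.44% on the long arm side. By number, 90.01% of the 771 siORCA peaks touched a control peak (95% Wilson interval 87.7 to 91.9%). This compares with 68.7% over all chromosomes and 93.0% in the array. Of the 1565 control peaks, 22.9% touched a siORCA peak (20.9 to 25.1%), against 33.7% over all chromosomes and 91.0% in the array. These intervals cover counting error only and treat neighbouring peaks as independent. The 77 siORCA peaks without a control base were short, with a median width of 227 bp and a longest width of 851 bp, and made up 20.9 kb.

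**Figure D1:**
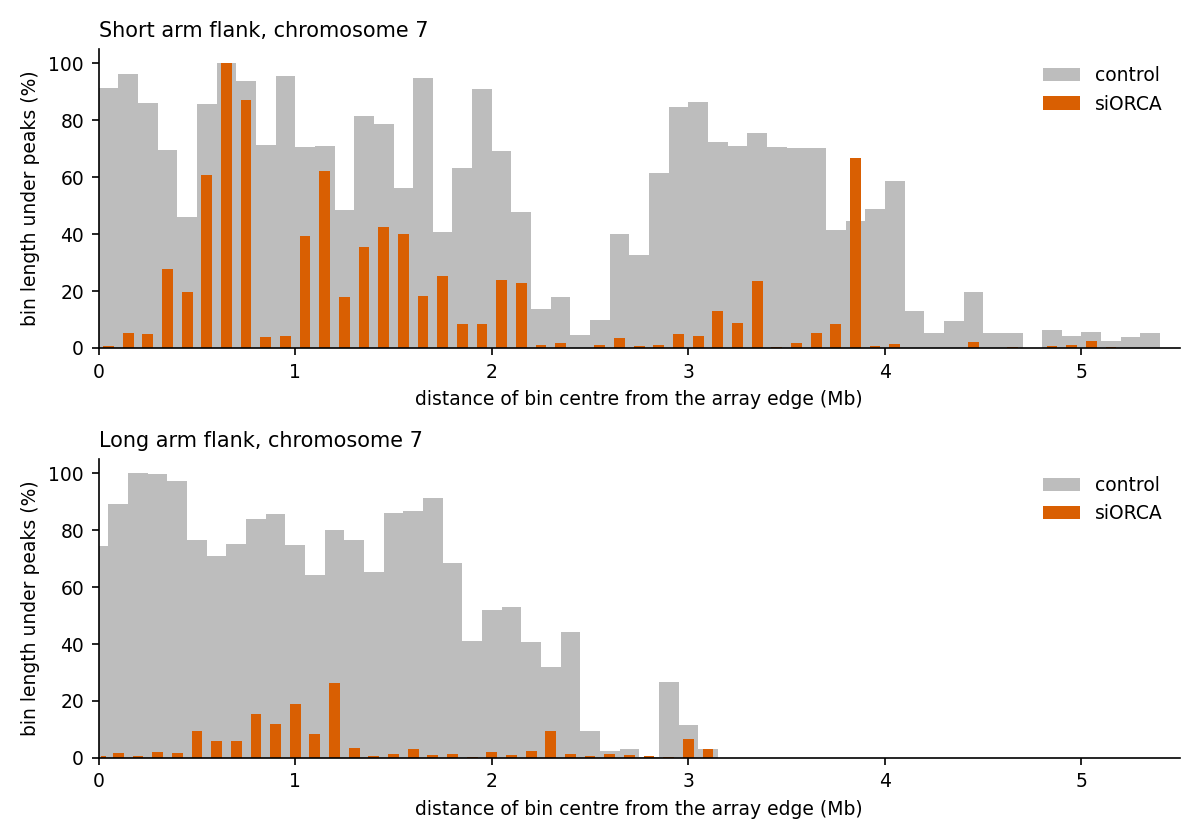
Share of each 100 kb bin under peaks (%) against the distance of the bin from the edge of the active array (Mb), for the short arm flank (top) and the long arm flank (bottom). Wide grey bars are the control library and narrow orange bars the siORCA library, 1 library each; siORCA bars reach the grey bars only around 0.65 Mb on the short arm side and exceed them in the bin centred at 3.85 Mb and, at under 1% in both lists, at 2.8 Mb on the long arm side.

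Along the flanks, control peaks formed dense blocks that ended in thinly covered outer parts. The limits of the following blocks were drawn after the bins had been seen. On the short arm side, the outer part from 55 to 56.3 Mb had 6.60% of its length under control peaks and 0.564% under siORCA peaks. A distal block followed from 56.3 to 57.8 Mb, with 62.0% under control peaks and 9.61% under siORCA peaks (ratio 0.155). A gap from 57.8 to 58.2 Mb was covered over 11.5% and 0.956%. From 58.2 Mb to the array, a proximal block was covered over 75.0% and 30.0% (ratio 0.400). On the long arm side, the first 450 kb beside the array had 94.0% of their length under control peaks and 1.46% under siORCA peaks (ratio 0.0155). From 64.2 to 65 Mb the values were 76.4% and 12.8% (ratio 0.167), and from 65 to 66.2 Mb they were 61.5% and 2.25% (ratio 0.0366). From 66.2 to 67 Mb, coverage had dropped to 7.11% and 1.65%.

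The set limits of the flanks did not all follow changes in the mark. At 55 Mb, control peaks took up 3.37% and siORCA peaks 0% of the 100 kb bin just outside, and 5.23% and 0.102% of the bin just inside. Where the array starts, coverage was 91.5% and 0.808% in the last bin of the flank and 46.2% and 22.4% in the first bin of the array. Where the array ends, its last 50 kb were covered over 60.1% and 12.03%, and the first 50 kb of the flank over 74.5% and 0.816%. At 67 Mb, the bin inside held no peak in either list and the bin outside 0.245 kb in the control alone. One control peak crossed each edge of the array, and no siORCA peak did.

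Per 100 kb bin, 77 of the 87 bins were covered over at least 5% in the control, and in 67 of these (87.0%) the siORCA length was at most 50% of the control length. Over all chromosomes 78.3% of the bins covered over at least 5% did so, so this share of the flank bins lay near the background. The siORCA length was at most 10% of the control length in 44 of the 77 bins (57.1%), against 43.9% over all chromosomes. The contrast in these shares was wider in the densest bins. Bins covered over at least 80% in the control numbered 22 in the flanks. In 19 of these (86.4%, Wilson interval 66.7 to 95.3%) the siORCA length was at most 50% of the control length. Over all chromosomes the share of such bins was 24.9%. In 14 of the 22 (63.6%) the siORCA length was at most 10% of the control length, against 13.0% over all chromosomes. Neighbouring bins can share a peak, so these intervals are too narrow.

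The 22 densest flank bins had a median ratio of 0.0555, against 0.932 in the 347 such bins outside the flanks. On the short arm side, 12 of these bins had a median ratio of 0.0759 and ranged from 0.00884 to 1.00. On the long arm side, 10 had a median of 0.0189 and ranged from 0.00791 to 0.330. In bins covered over 50 to 80% in the control, the median ratio was 0.0840 in 27 flank bins and 0.640 in 662 bins outside. There the flanks were close to chromosome 19, whose 52 bins of that class had a median of 0.0821. In the densest class chromosome 19 had only 9 bins, with a median of 0.828. At a control coverage of 5 to 20%, where most of the genome's marked bins fall, the medians were 0.0683 in 14 flank bins and 0.0913 in 5643 bins outside. The long arm median in that class, 0.311 in 2 bins, was above the median outside. At 20 to 50%, the medians were 0.145 in 14 flank bins and 0.253 in 1349 bins outside. There the short arm median, 0.369 in 9 bins, was above the median outside, and the long arm median was 0.0291 in 5 bins.

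**Figure D2:**
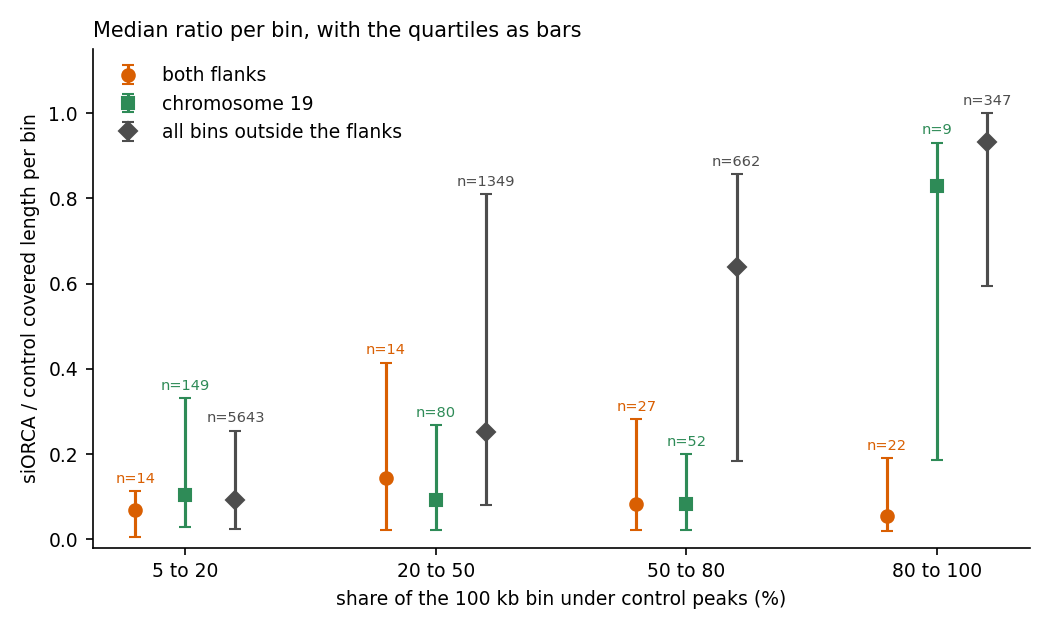
Ratio of siORCA to control covered length per 100 kb bin (y axis), by the share of the bin under control peaks (x axis, %), for the flanks (orange circles), chromosome 19 (green squares) and all bins outside the flanks, chromosome 19 included (grey diamonds). Points are medians, bars run from the lower to the upper quartile over bins, and n is the number of bins. Medians outside the flanks climb from 0.0913 to 0.932, while those of both flanks together stay between 0.0555 and 0.145. At 20 to 50%, the short arm median alone is 0.369 (9 bins) and the long arm median 0.0291 (5 bins).

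The largest falls on the long arm side were in 3 adjacent bins close to the array. From 63.9 to 64 Mb the control covered 100 kb with 1 peak and siORCA 0.791 kb with 3 peaks. From 64 to 64.1 Mb the lengths were 99.6 and 1.92 kb, and from 64.1 to 64.2 Mb they were 97.2 and 1.80 kb. These bins were almost fully covered in one list and almost empty in the other. On the short arm side the largest falls were from 59.4 to 59.5 Mb, with 95.4 and 4.11 kb (12 siORCA peaks), from 60.2 to 60.3 Mb, with 96.2 and 5.24 kb, and in the bin from 60.3 Mb to the array, with 91.5 and 0.808 kb. All 6 bins had a length-weighted control fold of 2.93 to 3.15, the deposited folds being the authors' values.

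A rise was seen in 2 of the 87 bins, and the share of such bins among all bins of the chromosomes was not counted. From 56.5 to 56.6 Mb the control covered 44.6 kb in 54 peaks and siORCA 66.7 kb in 13 peaks, and 30.0 kb was common to both. The control peaks there had a length-weighted fold of 2.66, and the siORCA peaks had one of 3.92. In siORCA these peaks joined into a stretch from 56527056 to 56607001 (79.9 kb, 12 peaks), of which 41.5% was covered in the control. The second bin, from 66.5 to 66.6 Mb, held 0.182 kb in the control and 0.611 kb in siORCA. Of the 34 flank bins covered over at least 5% in siORCA, 1 (2.94%) was covered over less length in the control, against 31.2% over all chromosomes. None had at most 50% of the siORCA length in the control, which with 34 bins allows a share of up to 8.82%, against 8.21% over all chromosomes.

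Broad peaks made up more of the flank peaks than of the whole list, on both sides in the control and on the short arm side in siORCA. Peaks of at least 10 kb made up 5.37% of the control peaks in the flanks and 0.751% of the whole control list. They held 2264 kb, or 49.8%, of the flanks' control peak length, against 20.1% in the whole control list. There were 51 on the short arm side and 33 on the long arm side, against 0 in the array and 1361 in the whole list. In siORCA there were 15 and 1, against 371 in the whole siORCA list. They made up 0.351% of that list and 2.08% of the flanks' siORCA peaks. By side they made up 2.97% on the short arm and 0.376% on the long arm. They held 56.3% of the flanks' siORCA peak length, but 8.38% on the long arm side alone, against 21.9% in the whole siORCA list. Flank peaks had a median width of 875 bp in the control, against 515 bp in the whole control list. In siORCA the median was 357 bp in the flanks and 414 bp in the whole list. In the array the medians were 784 and 821 bp.

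The longest control peak lay on the short arm side from 59610303 to 59820399 (210.1 kb), the 18th longest of the control list, with a fold of 6.49. Its siORCA counterpart from 59614751 to 59816573 (201.8 kb) was the longest siORCA peak of the flanks, with a fold of 11.2, the 4th highest among the 371 siORCA peaks of at least 10 kb. siORCA peaks covered 96.9% of the control peak. The longest control peak of the long arm side was nearly as wide, from 63895213 to 64088315 (193.1 kb), with a fold of 3.14. In siORCA, 8 short peaks lay in it and covered 1.40% of its length. The widest peaks of the 2 sides thus differed in fold within the control list, 22nd and 978th among 1361 peaks of at least 10 kb, and in what was left of them in siORCA.

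**Figure D3:**
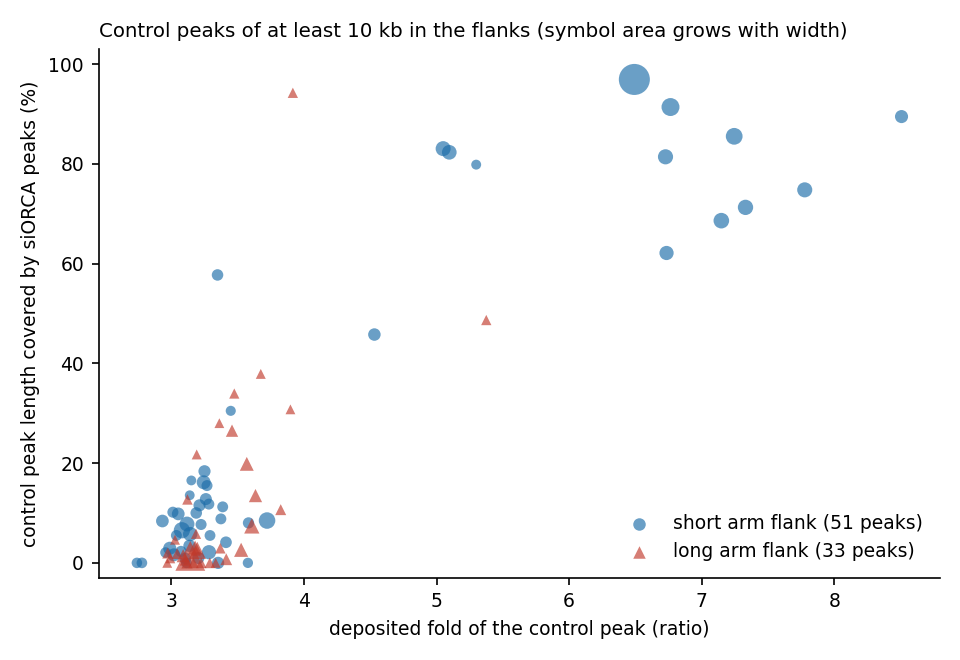
Share of each control peak's length covered by siORCA peaks (y axis, %) against the deposited fold of the control peak (x axis, ratio), for control peaks of at least 10 kb in the short arm flank (blue circles, 51 peaks) and the long arm flank (red triangles, 33 peaks); symbol area grows with peak width. The 12 short arm peaks with a fold of 5 and above lie between 62.1 and 96.9%, and most peaks with a fold near 3 lie under 20%.

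All 12 broad control peaks of the short arm side with a fold of at least 5 lay between 58272258 and 60031577, within the proximal block. They were 10.7 to 210.1 kb wide, with folds of 5.05 to 8.51, and siORCA peaks covered 62.1 to 96.9% of each. The strongest was from 59330344 to 59357838 (27.5 kb, fold 8.51), covered over 89.5% in siORCA. The next was from 59991112 to 60031577 (40.5 kb, fold 7.78), covered over 74.8%. A peak from 59191896 to 59244527 (52.6 kb, fold 7.25) was covered over 85.5%. The other 39 broad control peaks of the short arm side had folds of 2.74 to 4.53, and siORCA covered a median of 7.79% of each. Both kinds lay side by side. In the bins from 59.4 to 59.6 Mb, 166.8 kb was covered in the control and 8.01 kb in siORCA, while from 59.6 to 59.9 Mb the lengths were 279.6 and 247.9 kb. From 59.9 to 60.1 Mb they were 115.4 and 47.6 kb, and from 60.1 Mb to the array they were 273.8 and 10.9 kb.

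The long arm side had no such group of strong peaks. Of its 33 broad control peaks, 32 had folds of 2.97 to 3.92, and siORCA peaks covered a median of 2.77% of each, with 21 of them under 10%. The exception in fold lay apart from the block, from 66696613 to 66709037 (12.4 kb, fold 5.38), and was covered over 48.7% in siORCA. One peak with a fold of 3.92, from 64950298 to 64962747 (12.5 kb), was covered over 94.3%. It lies in the longest joined stretch of siORCA peaks on the long arm side, from 64950510 to 64977616 (27.1 kb, 8 peaks), of which 92.5% was covered in the control. That stretch also held the strongest siORCA peak of at least 1 kb on that side, from 64970901 to 64972211, with a fold of 4.58. The bin around it, from 64.9 to 65 Mb, had the highest ratio among the long arm bins covered over at least 20% in the control, 0.330, with 80.04 kb in the control and 26.4 kb in siORCA.

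Across the flanks, bins with a control fold of at least 4 had higher ratios of summed siORCA to control length than bins with weaker control peaks. Over the 77 bins covered over at least 5% in the control, the rank correlation (Spearman's rho) between the length-weighted control fold and the ratio was 0.587. It was 0.656 over 49 short arm bins and 0.496 over 28 long arm bins. The bins share the same 2 libraries and neighbouring bins share peaks, and a ratio holds the control length that the fold also rests on. With the control coverage of the bin in place of the fold, rho was 0.0724 over both flanks. The 2 sides differed in sign, with 0.261 on the short arm side and -0.183 on the long arm side. In 10 bins with a control fold of at least 5, all on the short arm side, 707.1 kb was covered in the control and 480.8 kb in siORCA (ratio 0.680). In 6 bins with a fold of 4 to 5 the ratio was 0.415. In 34 bins with a fold of 3 to 3.5, the lengths were 2496 and 215.8 kb (ratio 0.0865). In summed length the order did not hold below that. The 26 bins with a fold under 3 had a ratio of 0.110. By side it was 0.162 on the short arm and 0.0335 on the long arm. Of the 101.1 kb covered in siORCA in these 26 bins, 66.7 kb lay in the short arm bin from 56.5 to 56.6 Mb, where coverage rose. The median ratio of the 26 bins kept the order, with 0.0354 against 0.0549 at a fold of 3 to 3.5.

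At the same control fold, less of the length of flank peaks was covered in siORCA than of peaks elsewhere, up to a fold of 5. For control peaks with a fold under 2.5, 16.5% of the length was shared on the short arm side (144 peaks) and 5.75% on the long arm side (31 peaks), against 32.2% outside the flanks. With a fold of 2.5 to 3, 6.80% of the length was shared on the short arm side (580 peaks) and 2.94% on the long arm side (398 peaks), against 20.1% outside the flanks (112558 peaks). With a fold of 3 to 4 the shares were 10.03% (180 peaks), 8.47% (211 peaks) and 31.8% (35636 peaks). Among peaks of at least 10 kb with that fold, the shares were 9.16% (33 peaks), 8.16% (29 peaks) and 38.1% (951 peaks). In the array, 68.5% of the length at a fold of 2.5 to 3 was shared and 70.1% at a fold of 3 to 4. At a fold of 5 and above, 85.3% was shared on the short arm side (12 peaks), against 90.0% outside the flanks (287 peaks). The 2 sides had close shares at a fold of 3 to 4, while under a fold of 3 the short arm side had the larger share. Of the peaks with a fold of at least 5, 12 lay on the short arm side and 1 on the long arm side. Fold was not separated from position along the chromosome.

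**Figure D4:**
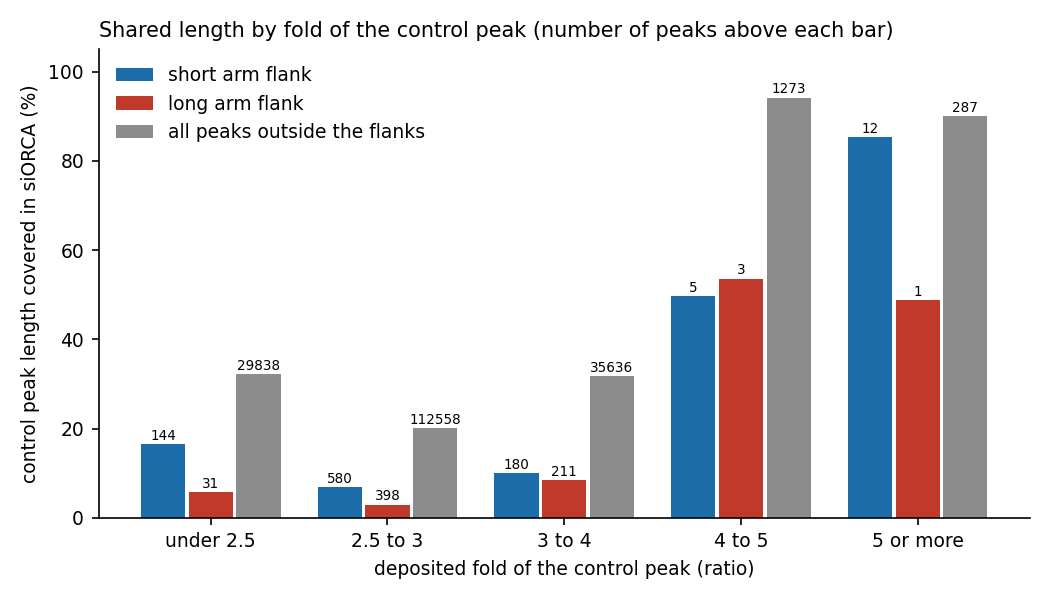
Share of control peak length also covered in siORCA (y axis, %) by the deposited fold of the control peak (x axis, ratio), for the short arm flank (blue), the long arm flank (red) and all control peaks outside the flanks (grey), with the number of control peaks above each bar. Flank bars stay under the grey bars in each class, with 6.80 and 2.94% against 20.1% at a fold of 2.5 to 3, and the classes from 4 upwards hold few flank peaks.

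The typical fold within each list told less than these strong peaks. The median fold of flank peaks was 2.81 in the control, 0.0771 above the median of the control list, and 3.16 in siORCA, against 3.29 in the siORCA list (a difference of -0.133). Neither sign held under all settings. The control difference was -0.0273 with peaks of a fold of at least 3, and that of siORCA 0.0425 when peaks were limited to a −log10 q of 2 or more. With mean folds weighted by peak length, the siORCA difference was 1.46. Of the control peaks in the flanks, 1.41% were in the top 1% of their list by fold (3.93 and above), and of the siORCA peaks 0.519% (4.96 and above). The 4 siORCA peaks in that class were all on the short arm side. Within the array, the median fold was 2.66 in the control and 3.45 in siORCA. Apart from the shared limit on fold and values given side by side, folds of the 2 lists were not compared with each other.

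Joining peaks at most 3 kb apart gave long runs in the control. Runs were clipped to the flanks. At each edge of the array 1 control peak crossed, so control runs given as reaching an edge extend beyond it. On the long arm side, the longest ran from the edge of the array at 63750001 to 64312070 (562.1 kb, 66 peaks), and 2.85% of it was covered in siORCA. Beyond it, the next ran from 64316006 to 64771857 (455.9 kb, 131 peaks, 11.2% covered in siORCA) and the third from 65135769 to 65519976 (384.2 kb, 87 peaks, 1.80%). On the short arm side, the longest ran from 59393685 to 59922028 (528.3 kb, 69 peaks), and 51.1% of it was covered in siORCA. A run from 60073230 to the edge of the array at 60400000 (326.8 kb, 59 peaks) was covered over 3.67%. Of the joined runs of at least 20 kb, 22 on the short arm side and 15 on the long arm side were in the control (2862 and 2204 kb), and 13 and 2 in siORCA (690.6 and 49.9 kb).

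Runs without a base of the other list were counted in the flanks alone, so no share over all chromosomes stands beside these counts. Of the 37 control runs of at least 20 kb, 3 held no siORCA base, and none of the 15 siORCA runs was without a control base. The longest control run with no siORCA base on the short arm side was from 56394337 to 56430067 (35.7 kb, 13 peaks, folds of 2.30 to 3.02). On the long arm side it was from 66117320 to 66143051 (25.7 kb, 9 peaks, folds of 2.59 to 3.14). The longest siORCA runs with no control base were from 58626369 to 58629907 (3.54 kb, 2 peaks) on the short arm side and, on the long arm side, a single peak of 0.851 kb from 66367197 to 66368047.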

How the data were processed

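Per the submitters' processing notes, bcl2fastq, Trimmomatic, Bowtie2, SAMtools and T2T-CHM13 were used; versions are not stated there. Which peak caller was run, how multiply aligned reads were treated and whether the input was used is not given in the sources used here. The authors deposited 1 broadPeak list per ChIP library. Its deposited fold is a ratio over background. The deposited −log10 p and −log10 q served only as limits on peaks, and both lists stop at a −log10 q of about 1.00. The deposited score was not used. From these lists, covered and shared bases were counted with Python 3.11.15, numpy 2.4.6 and pandas 2.3.3, in 100 kb bins clipped to the flanks, with positions printed from 1. On simulated peaks, 0 counts differed from a base by base count, and 100% of the bins set lower among 100 simulated bins were called. Peaks were not tied to genes, since the gene and promoter tables were on GRCh38, and no sequence is printed. Regions were named by rule: the longest joined run and the longest run without the other list, the 3 bins with the largest fall and every bin with a rise, and the strongest peak of at least 1 kb, per flank; others were chosen after their values were seen. The regions and all comparisons were chosen with earlier results of these data known.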

Additional observations from a re-analysis of the deposited data

How the results depend on the processing

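No paired analysis was possible because each condition had 1 library, which also left none to drop. Of 69 values recomputed under 13 settings, 46 stayed within the limits for no change. These were 1.5 times for ratios, and the 95% binomial interval for shares and medians. For shared lengths that interval took peaks as trials although the share is one of bases, so it is a nominal limit only. Covered length stayed lower in siORCA in both flanks under the 5 alternatives run for it (the q limit, the fold limit, equal numbers, shortened flanks and the bins left out), with ratios of 0.233 to 0.434 on the short arm side and 0.0323 to 0.0977 on the long arm side. A −log10 q of at least 2 gave the 0.0323, with 0.398 over all chromosomes. It also gave a peak ratio of 0.249, a shared control length of 17.0%, and fold differences of 0.0235 (control) and, reversed, 0.0425 (siORCA). A fold of at least 3 turned the peak ratio to 1.42, and gave a domain length ratio of 0.281, shared lengths of 24.6% (control) and 83.5% (siORCA), and fold differences of -0.0273, reversed, and -0.0856. Under it the covered length ratio was 0.434 on the short arm side, 0.0977 on the long arm side, 0.911 over all chromosomes and 11.2 in the array, where it left 0.170 Mb of control length. Equal numbers of peaks gave a peak ratio of 0.763, a shared siORCA length of 88.7% and a control fold difference of 0.0425. Shortened flanks gave a shared control length of 21.8%. Counted as peaks overlapped by 1 bp, the shared control part was 22.9%, and over 50% of their length 6.20% (siORCA 84.8%). A gap of 10 kb gave a domain ratio of 0.329. Length-weighted mean folds gave differences of 0.496 (control) and, reversed, 1.46 (siORCA). Without the 3 bins of the longest siORCA peak, a setting chosen after seeing the data, shared lengths were 14.8% (control) and 88.3% (siORCA). For these changes the cause was not tested. Since depth is unknown, a region empty in siORCA was not shown to lack the mark.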
